A study of Mus musculus with 6 samples.

Results

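The genes described here make, move, sense and balance the charge carried by GABA, the main inhibitory transmitter of the adult brain. They were chosen as 26 listed symbols out of the 32285 genes in the deposited matrices, and all 26 were found. They comprise the synthesis enzymes Gad1 and Gad2, the vesicular transporter Slc32a1, the uptake transporters Slc6a11 and Slc6a13, the breakdown enzyme Abat, 14 GABA-A receptor subunit genes, the GABA-B receptor genes Gabbr1 and Gabbr2, the synaptic proteins Gphn and Nlgn2, and the chloride carriers Slc12a2 and Slc12a5. Their levels were first compared between hippocampal cell classes and then between the 3 groups of mice.

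The data were single-cell RNA counts from dissociated hippocampus of mice aged 6 months, in 6 samples. Each of the 3 groups had 2 samples: wild-type littermates given PBS (WT_PBS), 5×FAD mice given PBS (5xFAD_PBS) and 5×FAD mice given Aβ3FTnAu (5xFAD_Ab3FTnAu). The 5×FAD line carries mutant human familial Alzheimer's disease transgenes, APP among them, driven by the neuronal Thy1 promoter and builds up amyloid plaques, and Aβ3FTnAu is named in the study's title as a protein and gold structure directed at amyloid-β. Separate animals are not named for the 2 samples in each group, so p-values measure the spread between samples, which may be technical.

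Inhibitory neurons make GABA from glutamate with 2 decarboxylases, GAD67 (Gad1) and GAD65 (Gad2), and load it into vesicles with the transporter VGAT (Slc32a1). Released GABA opens GABA-A receptors, chloride channels assembled from subunits of several families, and acts more slowly through GABA-B receptors, which couple to G proteins. Whether chloride flows in or out depends on the chloride exporter KCC2 (Slc12a5) and the importer NKCC1 (Slc12a2). Astrocytes clear GABA through GAT-3 (Slc6a11), and GABA transaminase (Abat) breaks it down.

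Cells were placed in 7 classes by their counts over fixed marker genes, none of which is among the 26: granule neurons of the dentate gyrus, CA1 and CA3 pyramidal neurons, interneurons marked by Sst, Pvalb or Vip, and astrocytes. A barcode with no class was left out. The classes held 8911 granule, 3490 CA1, 2895 CA3, 889 Sst, 158 Pvalb, 227 Vip and 1009 astrocyte cells, 17579 of the 41656 cells kept, and per sample from 12 (Pvalb) to 2337 (granule). Pvalb reached 91.3 CPM (counts scaled to the class total) in the Pvalb class. Sst reached 1653 CPM in the Sst class and Vip 3359 CPM in the Vip class. These genes are among the markers that placed the cells, so their height there followed from the rule. Not every listed marker was highest in its own class. The granule marker Trpc6 was at 464.9 CPM in granule and 581.7 CPM in Sst cells. The CA3 marker Coch was at 4.97 CPM in CA3 and 16.5 CPM in Sst cells. The Pvalb marker Pthlh was at 14.17 CPM in Pvalb and 18.75 CPM in Vip cells. The vesicular glutamate transporter Slc17a7, which placed no cells, stood at 9.45 to 37.5 CPM in the 3 interneuron classes. It stood at 211.9 to 287.8 CPM in the 3 excitatory ones. Other genes that placed no cells were split less sharply. Camk2a was at 176.7 to 341.2 CPM in the interneuron classes and 798.7 to 901.8 CPM in the excitatory ones. Adarb2, listed as a general interneuron gene, was at 1638 CPM in granule and 88.9 CPM in Sst cells. A level below is a CPM of counts summed over the cells of a class in a sample. Total depth was 32528417 to 76780861 counts per sample, highest in WT_PBS replicate 1, and pairs of libraries shared 9 to 45 barcodes. Cells with no mitochondrial count made up 17.8% to 66.8% of a sample and were most frequent in 5xFAD_Ab3FTnAu.

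The 2 decarboxylase genes and the vesicular transporter gene lie on chromosome 2 of GRCm38, at chr2:70553072-70602014 (Gad1), chr2:22622205-22693874 (Gad2) and chr2:158610767-158615748 (Slc32a1), and the astrocytic transporter at chr6:114131241-114249952 (Slc6a11). The stretches below run from 250 to 123 bases before the start that RefSeq gives each gene, on the plus strand of GRCm38.p6. They are shown because Gad1, Gad2 and Slc32a1 share the interneuron pattern and Slc6a11 has the astrocyte pattern. Capitals mark AGCGTGCTGAG, the longest run of letters that the Gad1 and Gad2 stretches share.
Gad1, chr2:70561879-70562006: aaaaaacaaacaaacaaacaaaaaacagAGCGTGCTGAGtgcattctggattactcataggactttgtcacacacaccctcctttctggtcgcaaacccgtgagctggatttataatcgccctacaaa
Gad2, chr2:22622077-22622204: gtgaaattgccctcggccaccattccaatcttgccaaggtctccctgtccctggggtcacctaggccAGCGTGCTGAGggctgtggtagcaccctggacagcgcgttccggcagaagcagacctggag
Slc32a1, chr2:158610508-158610635: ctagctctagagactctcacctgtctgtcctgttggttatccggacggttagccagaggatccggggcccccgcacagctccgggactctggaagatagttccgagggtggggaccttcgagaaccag
Slc6a11, chr6:114130991-114131118: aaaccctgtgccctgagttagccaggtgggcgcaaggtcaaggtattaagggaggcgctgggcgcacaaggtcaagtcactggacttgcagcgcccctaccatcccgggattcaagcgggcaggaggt

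This run of 11 letters begins 222 bases before the Gad1 start and 183 bases before the Gad2 start. On either strand it was present in the same window of 5 of 32851 RefSeq promoters (0.0152%). The longest run shared by Gad1 and Slc32a1 was TCTGGA, which 10.2% of the windows hold. A rare run was also shared by genes of unlike pattern: Slc32a1 and Slc6a11 share GTTAGCCAG, present in 16 windows (0.0487%). The GC content of the 4 windows was 42.2% for Gad1, 62.5% for Gad2, 60.2% for Slc32a1 and 60.9% for Slc6a11, against a median of 50.8% over all windows. The Gad1 stretch lies inside the span that GENCODE gives the gene, which begins farther upstream. These are descriptions of letters and not of binding sites.

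Gad1, Gad2 and Slc32a1 were at their highest in the interneuron classes. Gad2 had a lowest, median and highest sample value of 221, 259 and 305 CPM in Sst cells, 78.6, 142 and 220 CPM in Pvalb cells and 102, 172 and 245 CPM in Vip cells. In CA1 its 6 values ran from 0.499 to 2.48 CPM and in CA3 from 0.435 to 1.81 CPM, so no interneuron sample overlapped an excitatory one. Gad1 ran from 66.2 to 164 CPM in Sst cells, from 177 to 360 CPM in Pvalb cells and from 134 to 224 CPM in Vip cells. Slc32a1 ran from 24.8 to 141 CPM in Sst, 19.7 to 142 CPM in Pvalb and 23.6 to 203 CPM in Vip cells, and its 3 ranges overlapped. In CA1 and CA3 cells Slc32a1 did not pass 1.65 CPM in any sample.

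The mean of the interneuron classes was set against the mean of the excitatory classes in edgeR, with the sample as a block and adjusted p-values over 12119 genes. The log2 fold change was 6.54 ± 0.16 (SE) for Gad2 (adjusted p = 3.56e-37), 6.01 ± 0.21 for Slc32a1 (adjusted p = 1.40e-30) and 4.72 ± 0.15 for Gad1 (adjusted p = 3.02e-32). The rule that places cells in classes was settled after looking at check genes that included Gad1, Gad2, Slc32a1 and Slc6a11, so these contrasts are not independent of that choice. Under 3 other ways of placing the cells, Gad2 stood 5.73 to 5.98, Slc32a1 5.21 to 5.92 and Gad1 3.81 to 4.45 higher on the log2 scale. Abat was also higher in interneurons, by 2.36 ± 0.13 (edgeR adjusted p = 2.28e-22). Its sample values were 55.2, 82.3 and 115 CPM in Sst cells (lowest, median, highest) and 13.7, 15.9 and 17.2 CPM in granule cells.

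**Figure D1:**
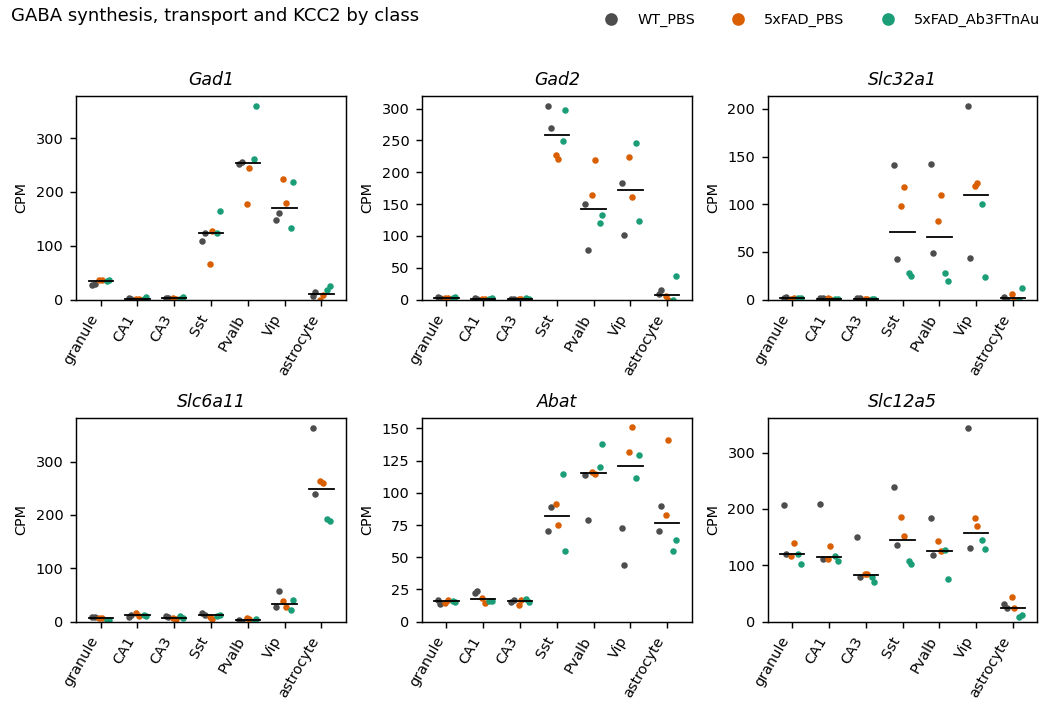
Levels of 6 genes of GABA synthesis, transport, breakdown and chloride export in each cell class. The horizontal axis gives the class and the vertical axis CPM on a linear scale from 0; each point is 1 sample, coloured by group, and the black line is the median of 6 samples. Gad2 and Slc32a1 stand highest in the 3 interneuron classes, Gad1 also shows a band near 35.4 CPM in granule cells, and Slc6a11 stands highest in astrocytes.

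Gad1 differed from its partners in granule neurons, the excitatory cells of the dentate gyrus. Its granule values were 26.5 and 28.3 CPM in WT_PBS, 36.2 and 35.9 CPM in 5xFAD_PBS and 34.9 and 36.5 CPM in 5xFAD_Ab3FTnAu, while its CA1 and CA3 values stayed between 0.465 and 5.52 CPM. Every granule sample was thus above every CA1 and CA3 sample. The granule value exceeded the mean of CA1 and CA3 by 3.65 ± 0.15 on the log2 scale (edgeR adjusted p = 1.39e-27), and by 2.94 to 3.54 under the 3 other ways of placing cells. After each cell was thinned to 1000 counts, 3.61% of granule cells held a Gad1 count (exact 95% interval 3.24% to 4.02%), against 0.258% in CA1, 0.276% in CA3 and 0.529% in oligodendrocytes, a class that should lack the gene. Unthinned, the shares were 15.8% in granule cells at a median of 4275 counts and 1.25% in oligodendrocytes at 1370 counts.

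Granule cells had no such level of Gad2 or Slc32a1. Gad2 ran from 1.80 to 4.16 CPM and Slc32a1 from 1.15 to 2.69 CPM in them, and 0.157% and 0.202% of thinned granule cells held a count, below the 0.280% and 0.591% of oligodendrocytes. The granule excess of Gad2 over CA1 and CA3 (0.94 ± 0.25, edgeR adjusted p = 0.000999) became -0.02 with seed cells alone and -0.30 with 10 passes of the class assignment, so it depended on how cells were placed. The Slc32a1 contrast was 0.52 ± 0.33 (adjusted p = 0.172).

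Slc6a11, the GABA uptake carrier of astrocytes, was highest in that class. Its astrocyte values were 363 and 239 CPM in WT_PBS, 264 and 259 CPM in 5xFAD_PBS and 193 and 189 CPM in 5xFAD_Ab3FTnAu. The next class was Vip, with 22.3 to 58.2 CPM, and the ranges did not overlap. Astrocytes exceeded the mean of the 6 neuron classes by 4.54 ± 0.15 (edgeR adjusted p = 1.56e-31). The 2 values of 5xFAD_Ab3FTnAu lay below the other 4, and no group comparison of Slc6a11 passed the threshold. Within interneurons, Vip cells stood 2.15 ± 0.52 above the mean of Sst and Pvalb cells (edgeR adjusted p = 0.00176), from 27 counts in Vip cells and 5 in Pvalb cells. Slc6a13, a GABA carrier known from the meninges and other barrier tissue, had 31 counts over all 7 classes and was below the filter on low counts.

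Interneurons and excitatory neurons carried different alpha subunit genes of the GABA-A receptor, the family that shapes where the receptor sits and how it responds to benzodiazepines. Gabra2 lay between 498 and 876 CPM in the 3 excitatory classes and between 42.3 and 272 CPM in the 3 interneuron classes, a log2 difference of -2.69 ± 0.08 (edgeR adjusted p = 1.31e-33). Gabra5, whose subunit is known for receptors outside synapses on pyramidal dendrites, was -2.42 ± 0.10 lower in interneurons (adjusted p = 4.78e-27). Its sample values were 164, 188 and 237 CPM in CA3, 142, 161 and 205 CPM in CA1 and 95.8, 115 and 139 CPM in granule cells (lowest, median, highest), so CA3 and CA1 overlapped and granule cells lay below both. CA1 stood below CA3 in the paired contrast by -0.25 ± 0.07 (edgeR adjusted p = 0.00417), which did not pass with DESeq2 or with the higher marker minimum.

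Gabra3 had the opposite pattern. It ran from 114 to 142 CPM in Sst cells, 78.8 to 137 CPM in Pvalb cells and 44.6 to 92.3 CPM in Vip cells, and from 2.15 to 9.87 CPM in granule cells. The interneuron contrast was 2.48 ± 0.16 (edgeR adjusted p = 6.11e-19). CA1 cells carried 47.3 to 72.3 CPM of Gabra3 against 9.03 to 16.1 CPM in CA3, with no overlap and a difference of 2.37 ± 0.13 (adjusted p = 3.87e-22). Gabra3 therefore separated the pyramidal fields from each other as well as interneurons from granule cells.

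Gabra4, a partner of the delta subunit in extrasynaptic receptors, was highest in granule cells, with 229, 241 and 267 CPM (lowest, median, highest). CA1 reached 139 CPM and CA3 125 CPM at most. The granule contrast was 0.97 ± 0.07 (edgeR adjusted p = 1.12e-18). In Pvalb cells Gabra4 ran from 123 to 246 CPM, overlapping the granule range, and in Sst cells from 24.2 to 59.99 CPM. Gabrd, the gene of the delta subunit itself, was highest in the same classes: 28.6 to 46.7 CPM in granule and 19.7 to 67.8 CPM in Pvalb cells, against 1.09 to 3.28 CPM in CA3 and 1.05 to 5.28 CPM in Sst cells. The log2 contrasts of Gabrd were 3.08 ± 0.10 for granule against CA1 and CA3 (edgeR adjusted p = 1.09e-31), 1.85 ± 0.20 for CA1 against CA3 (adjusted p = 4.71e-11) and 3.90 ± 0.37 for Pvalb against Sst (adjusted p = 4.43e-12). Vip cells held 1 Gabrd count in all.

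**Figure D2:**
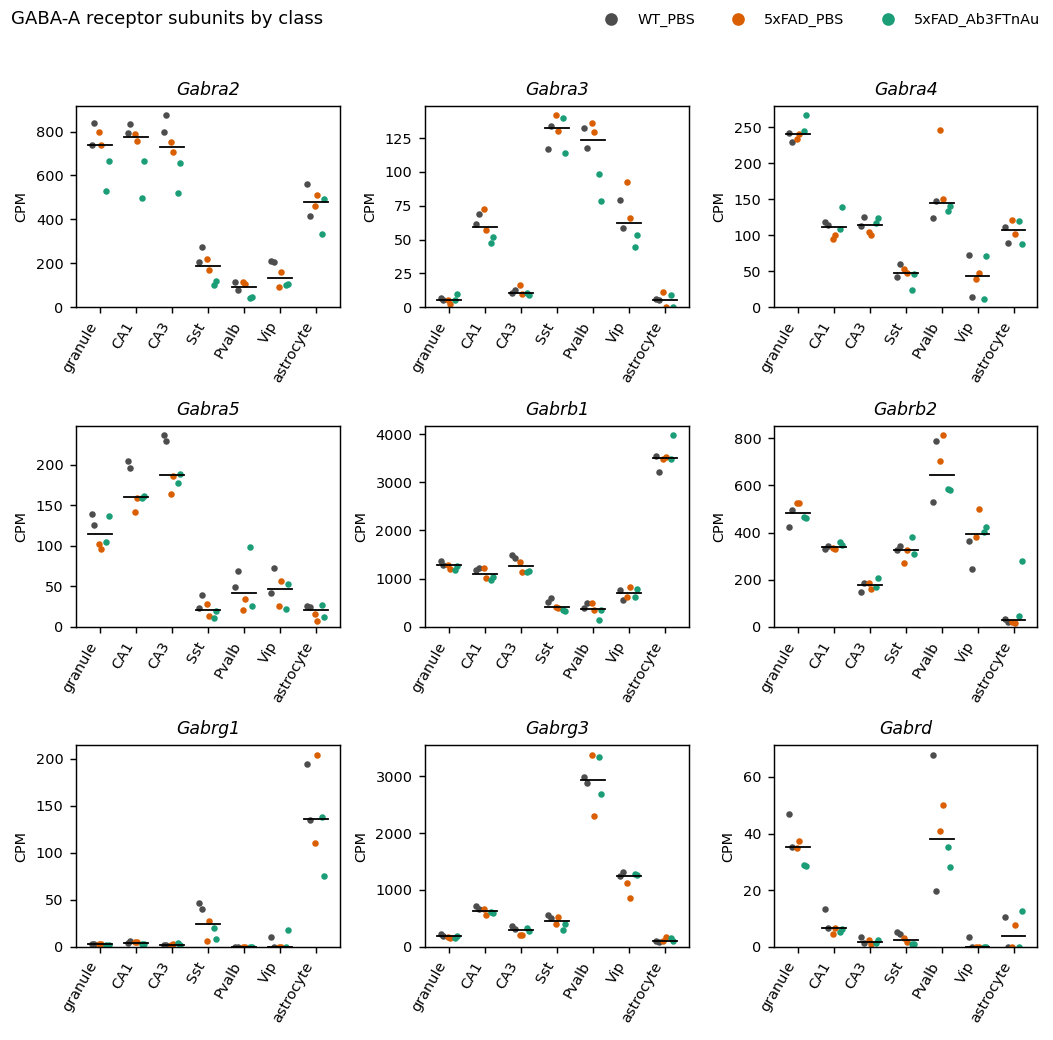
Levels of 9 GABA-A receptor subunit genes in each cell class, in CPM on linear axes that start at 0. Each point is 1 sample, coloured by group, and the black line is the median of 6 samples. Gabra2 and Gabra5 are high in the excitatory classes, Gabra3 in interneurons and CA1, Gabra4 and Gabrd in granule and Pvalb cells, Gabrg3 in Pvalb cells, and Gabrb1 and Gabrg1 in astrocytes.

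Among the beta subunits, Gabrb1 led in astrocytes and Gabrb2 in neurons. Gabrb1 reached 3204 to 3984 CPM in astrocytes, against a highest neuronal value of 1495 CPM, and the astrocyte contrast was 1.95 ± 0.08 (edgeR adjusted p = 1.47e-27). Within neurons it was -1.55 ± 0.07 lower in interneurons (adjusted p = 5.76e-25). Gabrb1 and Gabra4 overlap at their starts on chromosome 5 on opposite strands (chr5:71658113-72149037 and chr5:71569749-71658308), so reads in the overlap cannot be assigned without strand. Gabrb2 stood at 530, 644 and 814 CPM in Pvalb cells and 423, 481 and 527 CPM in granule cells. In astrocytes 5 samples lay between 15.7 and 46.0 CPM and 5xFAD_Ab3FTnAu replicate 2, with 42 astrocytes, at 277 CPM. The astrocyte contrast for Gabrb2 was -3.19 ± 0.21 (edgeR adjusted p = 3.82e-19).

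Gabrg3 and Gabrg1, both gamma subunit genes, had unlike patterns. Gabrg3 reached 2297 to 3379 CPM in Pvalb cells, above the 850 to 1310 CPM of Vip cells and the 285 to 552 CPM of Sst cells, with no overlap between the 3 ranges. Pvalb exceeded Sst by 2.73 ± 0.13 (edgeR adjusted p = 5.83e-23). CA1 cells held 562 to 719 CPM of it, CA3 204 to 366 CPM and granule cells 152 to 228 CPM. CA1 exceeded CA3 by 1.15 ± 0.12 (edgeR adjusted p = 4.05e-12). Gabrg1 ran from 75.7 to 204 CPM in astrocytes and from 6.31 to 46.0 CPM in Sst cells, and no count of it was seen in 158 Pvalb cells. With 3 counts as the limit for that 0, the pooled astrocyte level of 171 CPM was at least 72.3-fold higher than in Pvalb cells and the pooled Sst level of 27.8 CPM at least 11.8-fold higher. Intervals and limits of this kind cover counting error only.

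The remaining subunit genes gave few counts. Over the 7 classes Gabra6 had 3 counts, Gabre 5, Gabrq 6, Gabrr2 84 and Gabrr1 111. Of the rho genes, Gabrr1 was detected most in granule cells, at 0.460 to 2.60 CPM. With Slc6a13, these 6 genes did not pass the filter on low counts, which left 20 of the 26 genes in the class tests.

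Gabbr1 and Gabbr2 encode the 2 subunits of the GABA-B receptor. Gabbr1 was highest in astrocytes at 212, 262 and 285 CPM, and Gabbr2 lowest there at 36.8, 85.4 and 110 CPM. Their astrocyte contrasts had opposite signs, 0.71 ± 0.10 for Gabbr1 (edgeR adjusted p = 1.22e-08) and -1.90 ± 0.14 for Gabbr2 (adjusted p = 1.90e-17). CA1 against CA3 also split them, with Gabbr1 at 0.46 ± 0.07 (edgeR adjusted p = 2.54e-07) and Gabbr2 at -0.67 ± 0.09 (adjusted p = 6.52e-09). Gabbr2 was 0.80 lower in interneurons than in excitatory neurons (log2 fold change -0.80 ± 0.07, adjusted p = 1.46e-14).

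Gphn, the scaffold gephyrin that holds receptors at inhibitory synapses, varied little between neuron classes, with medians from 649 CPM in Pvalb to 871 CPM in Vip cells. Its astrocyte values of 1058 to 1463 CPM gave a contrast of 0.56 ± 0.07 (edgeR adjusted p = 5.57e-10). Nlgn2, an adhesion protein of inhibitory synapses, lay at medians of 17.1 to 29.9 CPM in the 7 classes. Of its 6 class contrasts, that of granule cells against CA1 and CA3 passed, at -0.26 ± 0.08 (edgeR adjusted p = 0.00276).

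The exporter gene Slc12a5 was lower in astrocytes than in neurons, and for the importer gene Slc12a2 that contrast did not pass. Slc12a5 had medians of 82.3 to 157 CPM in the 6 neuron classes and 24.2 CPM in astrocytes, a log2 contrast of -2.75 ± 0.16 (edgeR adjusted p = 3.55e-21). Slc12a2 had medians of 27.0 CPM in CA1, 49.7 CPM in granule, 45.6 CPM in astrocyte and 63.8 CPM in Sst cells, and its astrocyte contrast was -0.19 ± 0.18 (adjusted p = 0.412). CA1 and CA3 differed in both carriers and in opposite directions: Slc12a5 by 0.49 ± 0.07 (edgeR adjusted p = 1.36e-08) and Slc12a2 by -0.72 ± 0.09 (adjusted p = 8.30e-10). Of the counts of both carriers together, Slc12a5 gave 78.7% to 88.5% per sample in CA1, 59.3% to 76.8% in CA3 and 9.09% to 50.0% in astrocytes.

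**Figure D3:**
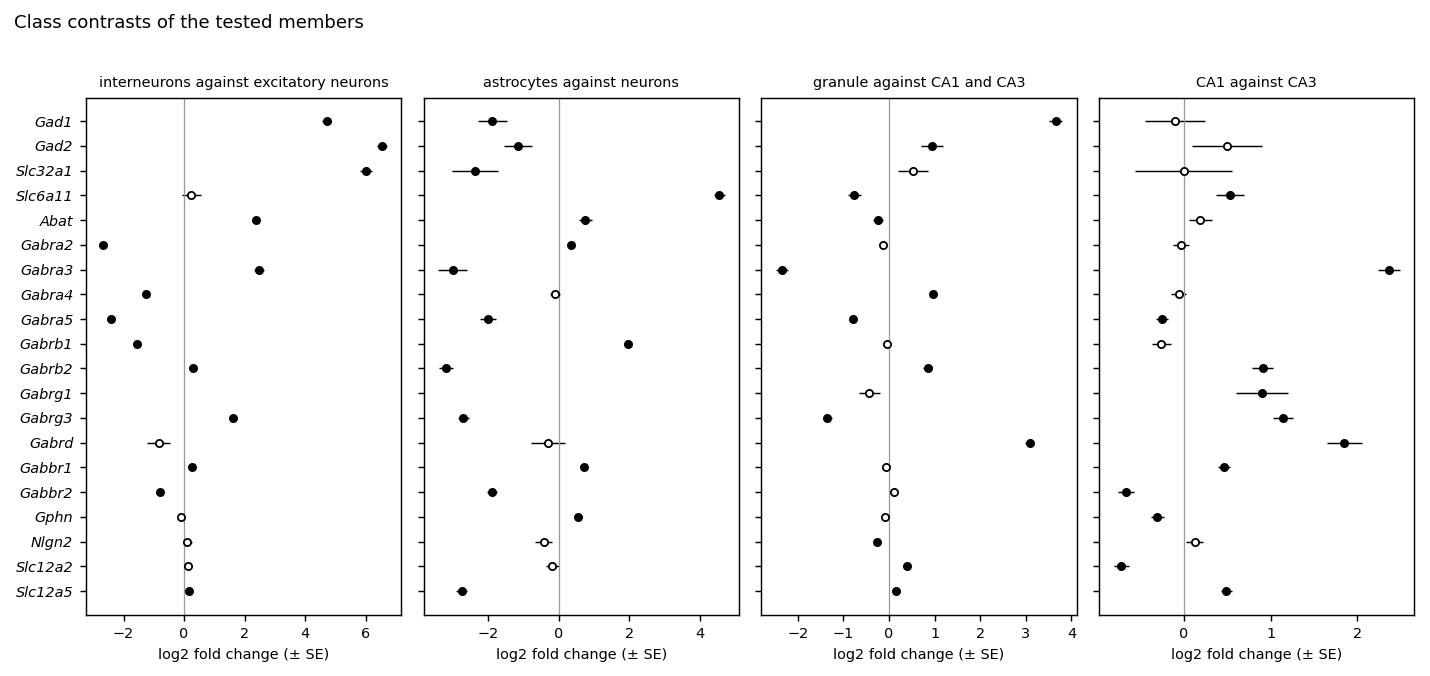
Log2 fold change of each tested gene in 4 class contrasts, with the standard error as a horizontal bar. Filled points have an edgeR adjusted p under 0.05 and open points do not; Gabrg1 is left out of the first 2 panels because Pvalb cells held no count of it. Gad2, Slc32a1 and Gad1 lie between 4.72 and 6.54 in the interneuron panel, and Gabrd and Gad1 lie above 3 in the granule panel.

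Counted over the contrasts, changes were frequent among all genes as well. In interneurons against excitatory neurons, 9 genes of the 20 tested were higher and 5 lower, 70.0% against 51.3% of all 12119 genes, of which 20.8% were higher and 30.4% lower. In astrocytes against neurons, 7 were higher and 9 lower (80.0% against 53.6%, with 25.2% higher and 28.4% lower), and in granule against CA1 and CA3, 7 were higher and 6 lower (65.0% against 61.0%, with 31.4% higher and 29.7% lower). In CA1 against CA3, 8 were higher and 4 lower, against 38.7% of all genes (19.0% higher, 19.7% lower). The share of the GABA genes was near the background in the granule contrast and above it in the other 3. The median log2 fold change of the tested GABA genes was 0.15 in the interneuron contrast, against -0.08 over all genes.

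The interneuron classes also differed among themselves. In Pvalb against Sst cells, 8 of 20 genes were higher and 5 lower, with 13.4% of all genes called (6.05% higher, 7.34% lower), and in Vip against Sst and Pvalb cells 4 were higher and 4 lower, with 14.6% of all genes called (6.36% higher, 8.23% lower). Beyond Gabrg3, Gabrd and Gabra4 (1.81 ± 0.18, edgeR adjusted p = 3.32e-11), Pvalb cells exceeded Sst cells in Gad1 by 1.11 ± 0.16 (adjusted p = 2.95e-07), in Gabrb2 by 1.002 ± 0.15 (adjusted p = 3.78e-07) and in Gabbr2 by 0.50 ± 0.12 (adjusted p = 0.00250). Gabra2 was lower in Pvalb cells (-1.06 ± 0.17, edgeR adjusted p = 3.86e-06), as were Gad2 (-0.85 ± 0.15, adjusted p = 2.38e-05) and Gabbr1 (-0.76 ± 0.14, adjusted p = 4.86e-05). Several of these calls did not hold under other processing. Gabra2 was at -0.03 with doublets kept (adjusted p = 0.957) and missed the threshold in cells with no mitochondrial count (-1.02, adjusted p = 0.0600). Gad2 missed it with DESeq2 (-0.78, adjusted p = 0.0513), with seed cells alone (-0.43, adjusted p = 0.0654) and in cells with a mitochondrial count (-0.53, adjusted p = 0.159). Gabbr1 missed it in cells with no mitochondrial count (adjusted p = 0.105), and Gabbr2 in those cells (adjusted p = 0.273) and in cells with a mitochondrial count (adjusted p = 0.133). A further 903 cells missed the Pvalb class only for too few of its own markers. With 10 passes and no minimum of own markers, 1639 cells fell in the class, Gad1 turned to -0.51, Gabra2 to 1.53 and Gad2 to -2.33. In Vip cells Gabrb1 stood 0.72 ± 0.12 above the mean of Sst and Pvalb (edgeR adjusted p = 1.20e-05) and Gabra3 -0.96 ± 0.26 below it (adjusted p = 0.00581).

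A list of 29 further genes of the pathway was counted in the same fits, 25 of them tested. In interneurons against excitatory neurons 5 were higher and 9 lower, 56.0% against the 51.3% of all genes. Among those with the smallest adjusted p were Kctd16, an auxiliary GABA-B subunit (-0.99 ± 0.06, edgeR adjusted p = 6.19e-20), the glutamine carrier Slc38a1 (1.34 ± 0.12, adjusted p = 1.27e-14) and the GABA-B auxiliary subunit Kctd8 (3.31 ± 0.34, adjusted p = 6.44e-12). Kctd8 ran from 624 to 774 CPM in Sst cells and from 11.8 to 56.6 CPM in Vip cells. In astrocytes 8 were higher and 12 lower (80.0% against 53.6%). The higher ones included Maob, which takes part in glial GABA synthesis, at 60.6 to 88.3 CPM in astrocytes and at most 5.89 CPM in any neuron class and sample. In granule against CA1 and CA3, 7 were higher and 6 lower (52.0% against 61.0%), with the smallest adjusted p for Plcl1, a phosphatase anchor of GABA-A receptors (2.75 ± 0.09, edgeR adjusted p = 2.62e-32). In CA1 against CA3, 10 were higher and 3 lower (52.0% against 38.7%), with the smallest adjusted p for Iqsec3, a gephyrin-binding exchange factor (-1.30 ± 0.07, adjusted p = 5.22e-22).

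The 3 groups were compared within each class, with all 6 samples in 1 fit per class. The 3 comparisons share samples with each other. Between 10 and 22 of the 26 genes passed the filter per class, which gave 114 gene and class pairs. In 5xFAD_PBS against WT_PBS no pair passed in edgeR, against 0.0% of all 62672 pairs of a gene and a class. At an unadjusted p under 0.05 there were 11 (9.65%, against 6.75% of all pairs), and DESeq2 called 0, against 0.0223% of all pairs in its fits. In 5xFAD_Ab3FTnAu against 5xFAD_PBS no pair passed in edgeR, against 0.059% of all pairs. There, 17 had an unadjusted p under 0.05 (14.9%, against 14.6%). DESeq2 called 1 pair, Slc32a1 in Sst cells (0.602%, against 0.554% of all pairs in its fits). In Sst cells edgeR called 0.177% of all genes (0.0104% higher, 0.167% lower). The edgeR zeros in these 2 comparisons rested on the WT_PBS samples that share the fit. Without WT_PBS replicate 1 or without WT_PBS replicate 2, edgeR called 2 and 10 pairs in 5xFAD_PBS against WT_PBS (1.74% and 8.40%, against 0.25% and 13.0% of all pairs in the same fits). In 5xFAD_Ab3FTnAu against 5xFAD_PBS it called 14 and 13 pairs (12.2% and 10.9%, against 11.8% and 11% of all pairs). In these fits the remaining WT_PBS sample is assumed to vary like the other groups.

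In 5xFAD_Ab3FTnAu against WT_PBS, 4 of the 114 pairs passed in edgeR, all of them lower in 5xFAD_Ab3FTnAu. That is 3.51%, near the 2.46% of all pairs that passed, with 1.19% higher and 1.27% lower. By class, 6.45% of all genes passed in CA1 (3.19% higher, 3.25% lower), 5.67% in Sst (2.48% higher, 3.19% lower) and 1.12% in Pvalb cells (0.684% higher, 0.438% lower). The 4 pairs called in edgeR were Slc32a1 in Sst and in Pvalb cells, Gabra2 in Sst cells and Gphn in CA1 cells. DESeq2 also called 4 pairs, 2.41% against 3.6% of all pairs in its fits. Of these, 3 are among the edgeR pairs, with Gphn in granule cells (DESeq2 adjusted p = 0.0482) in place of Slc32a1 in Pvalb cells.

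Slc32a1, the vesicular transporter, was lowest in 5xFAD_Ab3FTnAu in both classes. In Sst cells it stood at 141 and 43.1 CPM in WT_PBS, 97.7 and 118 CPM in 5xFAD_PBS and 28.4 and 24.8 CPM in 5xFAD_Ab3FTnAu. In Pvalb cells the values in the same order were 142, 49.1, 81.9, 110, 28.2 and 19.7 CPM. The low Pvalb values rest on few counts. In 5xFAD_Ab3FTnAu replicates 1 and 2, Pvalb cells with no mitochondrial count held 3 and 4 Slc32a1 counts, and the other Pvalb cells 1 and 3. In WT_PBS replicate 2 these were 2 and 3 counts. The 5xFAD_Ab3FTnAu values lay below the other 4 in both classes, yet WT_PBS replicate 2 lay closer to the 5xFAD_Ab3FTnAu samples than to WT_PBS replicate 1. The log2 fold change against WT_PBS was -1.79 ± 0.42 in Sst cells (edgeR adjusted p = 0.0349) and -2.31 ± 0.51 in Pvalb cells (adjusted p = 0.0402).

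Neither Slc32a1 call held without WT_PBS replicate 1, where the fold change was -0.68 in Sst and -1.14 in Pvalb cells. Both calls were also lost without 5xFAD_Ab3FTnAu replicate 2, and they did not both hold without 5xFAD_PBS replicate 1. Each of these fits left 1 sample in a group. Against 5xFAD_PBS the fold change was -1.998 ± 0.44 in Sst cells (adjusted p = 0.107) and -2.14 ± 0.54 in Pvalb cells (adjusted p = 0.171), and in Sst cells it passed without WT_PBS replicate 1 (adjusted p = 3.76e-08), without WT_PBS replicate 2 (adjusted p = 1.30e-07) and in DESeq2 (adjusted p = 0.0270). In Vip cells, where 1 5xFAD_Ab3FTnAu sample stayed high, the values were 203, 43.7, 119, 123, 100.4 and 23.6 CPM in the same order. The Vip fold change was -1.21 ± 0.70 against 5xFAD_PBS (edgeR adjusted p = 0.590). Vip cells of 5xFAD_Ab3FTnAu replicate 1 held 8 Slc32a1 counts in cells with no mitochondrial count and 1 in the others. Those of WT_PBS replicate 2 held 1 and 2. The decarboxylases did not follow. In Sst cells Gad2 stood at 305, 269, 227, 221, 249 and 297 CPM and Gad1 at 109, 123, 66.2, 127.5, 124 and 164 CPM, with fold changes of -0.02 ± 0.18 and 0.38 ± 0.26 in 5xFAD_Ab3FTnAu against WT_PBS.

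The share of cells with no mitochondrial count differed between the samples. Of Sst cells, 50.0% and 17.2% had no mitochondrial count in WT_PBS, 9.52% and 5.69% in 5xFAD_PBS and 57.1% and 56.3% in 5xFAD_Ab3FTnAu. Of Pvalb cells the shares were 62.5% and 33.3%, 26.7% and 12.5%, and 47.1% and 61.9% in the same order, so 5xFAD_Ab3FTnAu lay inside the WT_PBS range. Within the Sst cells that held a mitochondrial count, Slc32a1 was at 147 and 47.0 CPM in WT_PBS, 85.9 and 119 CPM in 5xFAD_PBS and 20.8 and 29.0 CPM in 5xFAD_Ab3FTnAu, a fold change of -1.95 on the log2 scale against WT_PBS (edgeR adjusted p = 0.0338). In the Sst cells with no mitochondrial count it was at 135 and 20.6 CPM in WT_PBS, from 87 and 2 counts. It was at 343.9 and 99.6 CPM in 5xFAD_PBS, from 5 and 3 counts. In 5xFAD_Ab3FTnAu it was at 34.8 and 21.6 CPM, from 18 and 11 counts. WT_PBS replicate 2 was lowest there, but with 2 counts its place relative to the 5xFAD_Ab3FTnAu samples is not settled. The part of cell quality in the Slc32a1 result was not tested.

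**Figure D4:**
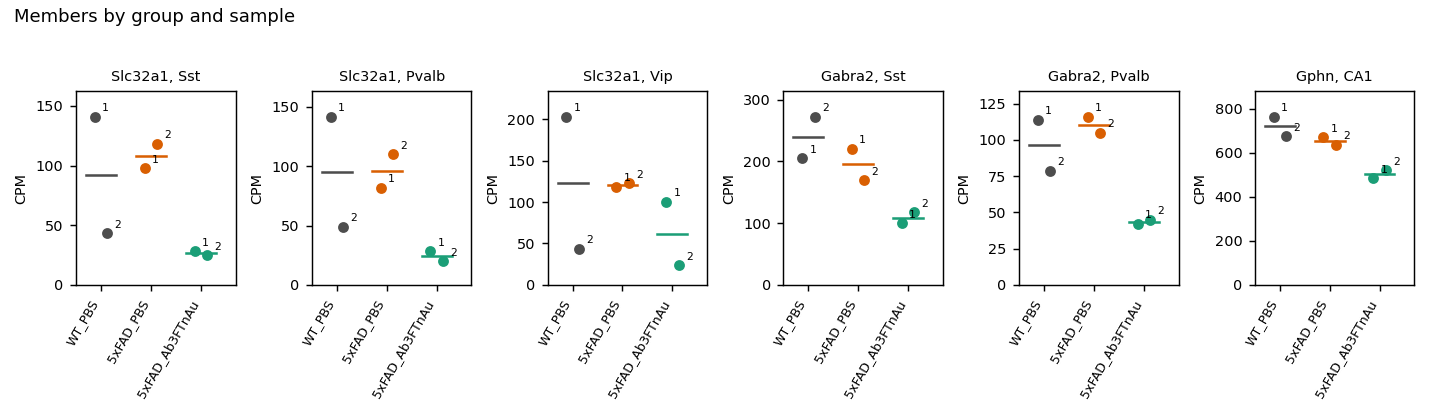
Levels by group of Slc32a1 in the 3 interneuron classes, Gabra2 in Sst and Pvalb cells and Gphn in CA1 cells, in CPM on linear axes that start at 0. Each point is 1 sample with its replicate number, and the line is the mean of the 2 samples. For Slc32a1 in Sst cells the 5xFAD_Ab3FTnAu points are at 28.4 and 24.8 CPM, and WT_PBS replicate 2 stands at 43.1 CPM.

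Gabra2, which encodes the alpha subunit that interneurons carry at a lower level than excitatory cells, was lower in 5xFAD_Ab3FTnAu in Sst cells. Its values were 205 and 272 CPM in WT_PBS, 221 and 169 CPM in 5xFAD_PBS and 100.1 and 117 CPM in 5xFAD_Ab3FTnAu, and the last group lay below the other 4 samples. The fold change was -1.08 ± 0.24 against WT_PBS (edgeR adjusted p = 0.0291) and -0.79 ± 0.25 against 5xFAD_PBS (adjusted p = 0.228). The call was lost without either 5xFAD_Ab3FTnAu sample (adjusted p = 0.224 and 0.183), without 5xFAD_PBS replicate 1 (adjusted p = 0.0544) and with seed cells alone (adjusted p = 0.0944), and the call against 5xFAD_PBS was made without WT_PBS replicate 1 (adjusted p = 0.00763) and without WT_PBS replicate 2 (adjusted p = 0.0103). The summed level of 4 general excitatory markers in Sst cells, all 4 detected, was also lowest in that group, at 226 to 246 CPM in WT_PBS, 194 to 246 CPM in 5xFAD_PBS and 174 to 191 CPM in 5xFAD_Ab3FTnAu. Most of that sum was Camk2a, at 176.7 CPM in Sst cells. The summed level of 9 granule markers was 815 to 845, 867 to 1110 and 953 to 1049 CPM in the same order. Most of it was Trpc6 and Stxbp6, at 581.7 and 297 CPM in Sst cells, and Trpc6 was lower in granule cells (464.9 CPM). The CA3 markers summed to 300 to 352, 366 to 416 and 431 to 435 CPM, and the CA1 markers to 138 to 143, 142 to 155 and 109 to 146 CPM. Gabra2 is at 498 to 876 CPM in excitatory cells, and the part of free excitatory RNA in its Sst values was not tested. Against WT_PBS, Gabra2 was negative in all 7 classes, from -0.32 to -1.23. The classes of a sample share a library, so they are not separate replicates.

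Gphn in CA1 cells stood at 764 and 675 CPM in WT_PBS, 672 and 637 CPM in 5xFAD_PBS and 486 and 522 CPM in 5xFAD_Ab3FTnAu. No group overlapped another. The fold change was -0.50 ± 0.10 against WT_PBS (edgeR adjusted p = 0.0407) and -0.36 ± 0.10 against 5xFAD_PBS (adjusted p = 0.144). Against WT_PBS it was negative in all 7 classes within a narrow range, -0.44 to -0.50, while the median of all genes tested in CA1 was -0.02. The CA1 call was lost without either 5xFAD_PBS sample (adjusted p = 0.105 in both), without either 5xFAD_Ab3FTnAu sample (adjusted p = 0.293 and 0.254), with at least 5 own-marker counts per cell (adjusted p = 0.0597) and in cells that held a mitochondrial count (-0.44, adjusted p = 0.0764). In CA1 cells with no mitochondrial count, a share of 61.6% and 27.6% in WT_PBS, 24.9% and 17.8% in 5xFAD_PBS and 72.9% and 63.6% in 5xFAD_Ab3FTnAu, it held (-0.53, adjusted p = 0.0301). In CA1 against 5xFAD_PBS it passed without WT_PBS replicate 1 (adjusted p = 0.000571) and without WT_PBS replicate 2 (adjusted p = 0.000292).

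**Figure D5:**
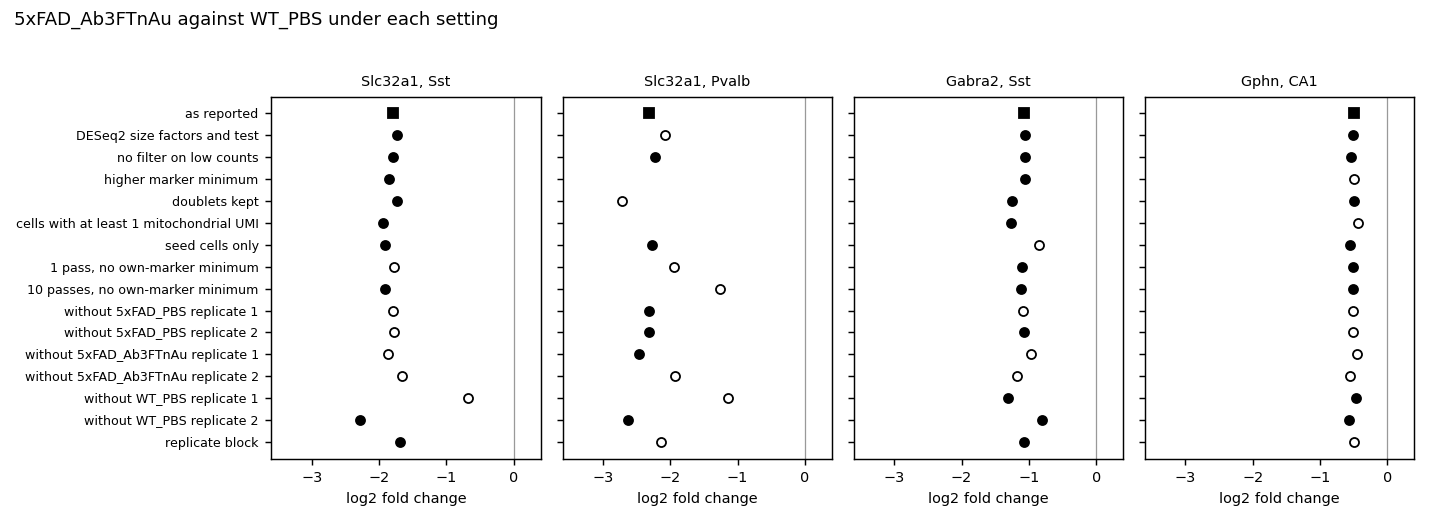
Log2 fold change of the 4 called pairs in 5xFAD_Ab3FTnAu against WT_PBS under each way of processing the data. Filled markers have an adjusted p under 0.05 and open ones do not, and the square is the value as reported. Every value shown is below 0, and Slc32a1 moves to -0.68 in Sst and -1.14 in Pvalb cells without WT_PBS replicate 1.

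Other pairs with separate groups and large fold changes did not pass. In 5xFAD_PBS against WT_PBS, Gabrg1 in Sst cells was at 6.31 and 27.7 against 46.0 and 40.0 CPM (-1.11 ± 0.49, edgeR adjusted p = 0.835). Its value of 6.31 CPM came from 0 counts in cells with no mitochondrial count and 2 in the others. Abat in Vip cells was at 132 and 151 against 72.4 and 43.7 CPM (1.10 ± 0.45, adjusted p = 0.728). Gabra5 in Pvalb cells was at 20.5 and 35.0 against 49.3 and 68.8 CPM (-0.91 ± 0.74, edgeR adjusted p = 0.915). The 5xFAD_PBS values of Gabra5 came from 1 and 3 counts in cells with no mitochondrial count and 2 and 4 in the others. Vip cells had 92.3 and 160 against 210 and 204 CPM of Gabra2 (-0.69 ± 0.39, adjusted p = 0.768). Gabrg3 in CA3 cells was at 204 in both 5xFAD_PBS samples against 366 and 310 CPM (-0.69 ± 0.13, adjusted p = 0.735), and without WT_PBS replicate 2 this pair passed (-0.76, adjusted p = 0.000574), as it did with all 6 samples and no filter on low counts (-0.71, adjusted p = 6.09e-05).

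In 5xFAD_Ab3FTnAu against 5xFAD_PBS, Gabra2 in Pvalb cells was at 42.3 and 45.0 against 116 and 105 CPM (-1.36 ± 0.40, edgeR adjusted p = 0.198), and turned to 0.72 with doublets kept. Abat in astrocytes was at 55.2 and 63.0 against 82.6 and 141 CPM (-0.93 ± 0.52, adjusted p = 0.661). Against WT_PBS, Gabrg1 in Sst cells was at 20.01 and 7.89 against 46.0 and 40.0 CPM (-1.56 ± 0.46, adjusted p = 0.0662), and it passed with seed cells alone (adjusted p = 0.0450). The summed level of 9 astrocyte markers in Sst cells, all 9 detected, was 41.5 to 63.1 CPM in WT_PBS, 6.31 to 32.3 CPM in 5xFAD_PBS and 10.1 to 19.0 CPM in 5xFAD_Ab3FTnAu. It was thus highest in the same group as Gabrg1, which is highest in the astrocyte class, and its part in the Gabrg1 values was not tested.

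Several genes were highest in 1 library, WT_PBS replicate 1, which was also the deepest. The share of all genes that were highest in that library was not computed. The count that follows therefore has no background and cannot be read as particular to these genes. Of the 20 genes tested, 7 were highest in that sample in granule, CA1 and CA3 cells alike: Gabra5, Gabrg3, Gabrd, Gabbr1, Gphn, Nlgn2 and Slc12a5. Slc12a5 was at 207 CPM there in granule cells against 102 to 139 CPM in the other 5 samples, and at 345 CPM against 130 to 185 CPM in Vip cells. Its fold change in CA1 of 5xFAD_PBS against WT_PBS was -0.38 ± 0.23 (edgeR adjusted p = 0.685), and -0.74 without WT_PBS replicate 2 (adjusted p = 1.13e-06), against 0.07 without WT_PBS replicate 1 (adjusted p = 0.934). Of the 29 further pathway genes, 1 of 123 pairs passed in a group comparison (0.813%, against 2.46% of all pairs and 6.45% of all genes in CA1). It was Stk39, a kinase that regulates chloride carriers, higher in CA1 cells of 5xFAD_Ab3FTnAu than of WT_PBS (0.46 ± 0.11, edgeR adjusted p = 0.0498).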

How the data were processed

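Raw UMI counts were deposited as a gene by barcode matrix for each sample, written by Cell Ranger 7.1.0 per the file headers, on mm10 with Seurat 4.3.0.1 also named per the submitters' processing notes. Cells with at least 500 genes, 1000 UMIs and at most 15% mitochondrial UMIs were kept, and the highest Scrublet scores (scanpy 1.11.5) were removed as doublets at 0.8% per 1000 cells. Cells were classed by a Poisson likelihood over marker genes, with odds of at least 20, at least 5 marker UMIs and at least 3 UMIs from 2 genes of the own list. This scoring was settled after seeing the data: 4 schemes were compared on check genes that included Gad1, Gad2, Slc32a1 and Slc6a11, and the other 3 (seed cells only, and 1 or 10 passes with no own-marker minimum) were added as alternatives. The 26 genes, the lists and the tests were chosen with earlier results of these data known.

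Counts of each class were summed within a sample and compared with edgeR 4.0.16 in R 4.3.3 (TMM, filterByExpr, quasi-likelihood F test, Benjamini-Hochberg adjusted p under 0.05), with the sample as a block for class contrasts. Alternatives were DESeq2 1.42.0, no filter on low counts, at least 5 own-marker UMIs, doublets kept, cells with and without mitochondrial UMIs, the sample block dropped, a replicate block and each sample left out. A standard error is the log2 fold change divided by the square root of the F statistic. The scripts were tested on simulated data. All 26 genes were named, with up to 10 per class contrast by adjusted p, every called group pair, and per group comparison the 5 largest fold changes with separate groups and a mean of at least 20 CPM. Of the further pathway list, up to 4 genes per class contrast could be named, and 1 gene among them is counted but not reported here. Gabbr2 in the interneuron and Nlgn2 in the granule contrast were added after their values were seen. A promoter was found for 23 of the 26 genes in the RefSeq table (GRCm38.p6), and gene positions are those of GENCODE vM21.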

Additional observations from a re-analysis of the deposited data

How the results depend on the processing

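Of the class contrasts, Pvalb against Sst fell from 13 to 8 called genes in cells with no mitochondrial count, and Vip against Sst and Pvalb from 8 to 5 with the higher marker minimum and to 4 in cells with no mitochondrial count or with at least 1. Leaving out each sample gave 13 to 15, 14 to 16, 12 to 13, 11 to 12, 11 to 13 and 6 to 7 called genes in the 6 contrasts in the order of interneurons, astrocytes, granule, CA1, Pvalb and Vip. Among the genes and pairs chosen by the naming rule, those that reversed were Gad1 (-0.51, 10 passes) and Gabra2 (0.71 with 1 pass, 1.53 with 10) in Pvalb against Sst, Gad2 in granule cells (-0.021 with seed cells, -0.30 with 10 passes), and, with doublets kept, Gabra2 in Pvalb cells of 5xFAD_Ab3FTnAu (0.72 against 5xFAD_PBS, 0.094 against WT_PBS). Of values not called, Slc32a1 in Pvalb against Sst went from 0.03 to -0.57 with 1 pass (adjusted p = 0.0232) and -1.79 with 10 (adjusted p = 2.55e-13), Gabra2 in Pvalb cells of 5xFAD_PBS against WT_PBS from 0.13 to -0.63 with doublets kept, and Slc12a5 in CA1 cells of the same comparison from -0.38 to 0.07 without WT_PBS replicate 1. The cause was not tested.

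Without the filter on low counts the group comparisons called 1 pair (5xFAD_PBS against WT_PBS, Gabrg3 in CA3 cells), 8 (5xFAD_Ab3FTnAu against 5xFAD_PBS, 1 with DESeq2) and 21 (5xFAD_Ab3FTnAu against WT_PBS), or 0.602%, 4.82% and 12.7%, against 0.668%, 2.92% and 7.11% of all pairs. The last gave 2 pairs with the higher marker minimum (2.06%, against 1.06% of all pairs) and in cells with a mitochondrial count (2.41%, against 0.781%). With 1 pass and no own-marker minimum it also gave 2 pairs (1.6%, against 2.01%). Leaving out each sample gave 0 to 10, 0 to 14 and 0 to 32 pairs. In granule, CA1 and CA3 cells the differences between replicates 1 and 2 correlated between groups at -0.27 to 0.00548. These values gave no sign of pairing by replicate number, but they cannot show whether samples were prepared in pairs. With the replicate block, 5xFAD_Ab3FTnAu against WT_PBS gave 2 pairs (1.75%, against 0.814% of all pairs). Slc32a1 in Pvalb (edgeR adjusted p = 0.0756) and Gphn in CA1 cells (0.0723) were lost. Pvalb cells numbered 12 to 48 per sample.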

Other observations

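Oligodendrocytes, which lie outside the 7 classes, held 3213 cells and stood apart for 2 of the 26 genes. Slc12a2, the chloride importer, had 489, 608 and 737 CPM in them (lowest, median, highest of 6 samples), above the highest value of any of the 7 classes, 126 CPM in 1 astrocyte sample. Gabrr2, a rho subunit gene, had 27.5, 39.3 and 45.4 CPM, against at most 5.89 CPM in any sample of the 7 classes. Of the 29 further pathway genes, Plcl1 reached 2252 to 4046 CPM in oligodendrocytes. Neither class difference was tested, since oligodendrocytes were not part of the fits.

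Counts of 3 genes, Gad1, Gad2 and Slc32a1, were seen together in 24.1% of Pvalb cells, 8.44% of Sst cells and 6.61% of Vip cells, at median depths of 7200, 4679 and 2957 counts. At least 1 of the 3 was seen in 96.2%, 85.0% and 74.9% of them, and after thinning to 1000 counts in 39.9%, 38.6% and 43.2%. The order of the unthinned shares followed depth and was not kept after thinning.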
